A study of Mus musculus with 2 samples.

Results

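The 10 genes described here make, load and switch on MHC class II, the complex with which antigen-presenting cells show peptides to CD4 T cells. They are H2-Aa, H2-Ab1 and H2-Eb1, which code for classical class II chains, Cd74, the invariant chain, H2-DMa, H2-DMb1 and H2-DMb2, the peptide-loading H2-DM chains, H2-Oa and H2-Ob, the chains of the H2-DM inhibitor H2-O, and Ciita, the class II transactivator. They were chosen by symbol from the 32245 gene symbols of the deposited count matrices, and all 10 were found in both libraries. Their transcripts were followed through dendritic cell subsets, monocytes, macrophage programs and tumour-like cells, all called from UMIs of other genes.

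One library came from mice fed sitagliptin, a drug that blocks the peptidase DPP4, and the other from mice on the control diet. Both groups were labelled WT and carried tumours of MC38-OVA, an ovalbumin-expressing subline of the murine MC38 colon tumour. Cells were enriched for CD45 by magnetic sorting and counted as unique molecular identifiers (UMIs) in droplets with a 5′ kit. How many mice went into each library, their age and any pooling are not stated in the labels used. With 1 library per diet there is no replicate check, so no test was run, and each ratio below compares these libraries, not the diets. Ratios are sitagliptin over control, levels are UMIs per 1000000 UMIs of the class and library (CPM), and all intervals are exact 95% intervals that cover counting error only.

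Class II chains are assembled in the endoplasmic reticulum on the invariant chain, which blocks the groove and guides the complex to endosomes. There proteases trim the invariant chain to a short peptide, H2-DM exchanges that peptide for antigen peptides, and H2-O holds H2-DM back in some cells, chiefly B cells and dendritic cells. CIITA binds no DNA itself but joins the factors that sit on the X and Y boxes upstream of class II genes. Dendritic cells express it without a further signal and macrophages after interferon gamma.

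Most of the genes, 8 of 10, lie on chromosome 17 (GENCODE M21, GRCm38). RefSeq's promoter table (GRCm38.p6) matched 7 of the 10 symbols, with 8 entries, and not H2-Ab1, Cd74 or Ciita. The 130 bases before the start are shown for genes that differ below in where they were read, with capitals for an X box form (AAC, any 2 bases, then ATGATG) and for the Y box (GATTGG) where they stand on the strand shown. Both were searched on either strand, and H2-Eb1 also held a Y box on the other strand, 35 to 30 bases before the start, left in lower case.
H2-Eb1 (chr17:34305737-34305866, plus strand): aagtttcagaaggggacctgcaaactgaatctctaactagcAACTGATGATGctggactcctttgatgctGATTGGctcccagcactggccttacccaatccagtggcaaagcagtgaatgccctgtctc
H2-DMb1 (chr17:34153061-34153190, plus strand): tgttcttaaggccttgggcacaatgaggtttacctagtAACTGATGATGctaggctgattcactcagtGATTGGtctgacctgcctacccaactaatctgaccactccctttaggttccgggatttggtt
H2-DMb2 (chr17:34145119-34145248, plus strand): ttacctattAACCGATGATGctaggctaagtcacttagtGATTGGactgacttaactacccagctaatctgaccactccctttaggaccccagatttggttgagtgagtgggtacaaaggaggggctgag
H2-Ob (chr17:34238775-34238904, plus strand): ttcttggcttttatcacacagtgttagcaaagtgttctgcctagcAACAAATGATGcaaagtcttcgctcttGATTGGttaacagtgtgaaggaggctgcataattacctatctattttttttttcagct
H2-Aa (chr17:34287824-34287953, minus strand): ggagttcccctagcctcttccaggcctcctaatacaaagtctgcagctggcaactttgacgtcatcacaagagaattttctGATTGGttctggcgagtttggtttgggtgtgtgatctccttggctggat
H2-Oa (chr17:34092249-34092378, plus strand): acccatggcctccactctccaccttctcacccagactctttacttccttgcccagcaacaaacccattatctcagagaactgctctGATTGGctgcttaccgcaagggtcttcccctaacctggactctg
The X box form stood in the 300-base window of 4 matched genes and the Y box in that of 7, while 0.137% and 16.1% of 32851 mouse promoters held them. For H2-DMa, whose bases are not shown, the Y box stood only in entry 2, 199 to 194 bases before the start. Neither of its 130-base stretches held a box. Both together stood in 0.0335% of promoters. In H2-Eb1 the X box form began 89 bases and the Y box in capitals 60 bases before the start, and in H2-DMb1 they began 92 and 62 bases before it. In H2-DMb2 they began 121 and 91 bases before the annotated start. The letters were chosen with these promoters in view, and a match describes sequence and is not a binding site. H2-DMb1 and H2-DMb2, which differ below in their pattern over the classes, both carried both boxes.

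The sitagliptin library held 9766 barcodes and 76788699 UMIs (median 5158.5 per barcode), and the control library 8694 barcodes and 64139749 UMIs (median 5074). After removal of the 6% with the highest doublet scores, the sitagliptin library gave 3049 macrophages, 890 monocytes, 29 cDC1, 80 cDC2, 62 mature dendritic cells and 730 tumour-like cells. The control library gave 2582 macrophages, 536 monocytes, 18 cDC1, 43 cDC2, 59 mature dendritic cells and 1205 tumour-like cells. Each class was called by UMIs of a marker list per 10000 UMIs of the barcode above a limit, so a class is a range of that score. Within 20% above the limit lay 112 macrophages, 63 monocytes and 10 cDC2 with sitagliptin, and 105 macrophages, 59 monocytes and 6 cDC2 in control. Mixed barcodes, 1061 with sitagliptin and 1417 in control, and unassigned ones, 2694 with sitagliptin and 1927 in control, stayed out. The dendritic classes were small, and 132 barcode sequences occurred in both libraries. Defining genes were present in the dendritic classes, with Clec9a at 277 CPM with sitagliptin and 422 CPM with control in cDC1, Cd209a at 332 CPM with sitagliptin and 349 CPM with control in cDC2 and Ccr7 at 1479 CPM with sitagliptin and 2043 CPM with control in mature dendritic cells. Tumour-like cells were led by Tm4sf1 and Aebp1 and had little Ptprc, the gene for CD45, at 14.3 CPM with sitagliptin and 9.94 CPM in control, against 651 CPM with sitagliptin and 639 CPM with control in macrophages. Keratin genes expected of an epithelial tumour were at or near 0 in them, with 1 Krt8 UMI in each library, so the name rests on mesenchymal genes such as Sparc. Gm42418, a gene model known to collect ribosomal RNA reads, took 133912 CPM with sitagliptin and 103634 CPM with control in macrophages and was higher in the sitagliptin library in all classes read, which lowers every other CPM there. Zbed5 had 128 CPM in macrophages of the sitagliptin library and 0.797 CPM in those of the control library, a gap that runs through all classes.

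Class II transcripts were most abundant in conventional dendritic cells and lowest in tumour-like cells. Summed over the 10 genes, cDC1 had 46147 CPM in the sitagliptin library and 47382 CPM in the control library, and cDC2 had 39693 CPM with sitagliptin and 46126 CPM in control. Mature dendritic cells followed with 26537 CPM with sitagliptin and 22776 CPM in control, then macrophages with 13676 CPM with sitagliptin and 15186 CPM in control and monocytes with 10078 CPM with sitagliptin and 12364 CPM in control. Plasmacytoid dendritic cells, with 26 barcodes with sitagliptin and 15 barcodes in control, lay near monocytes at 11479 CPM with sitagliptin and 10149 CPM in control. Tumour-like cells had 286.7 CPM with sitagliptin and 280.7 CPM in control. With sitagliptin, cDC1 stood above cDC2 with intervals apart (45207 to 47102 against 39150 to 40242 CPM), while in the control library the intervals overlapped (45912 to 48886 against 45156 to 47112 CPM). The remaining order, from mature dendritic cells through macrophages and monocytes down to tumour-like cells, was the same in both libraries with intervals apart.

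**Figure D1:**
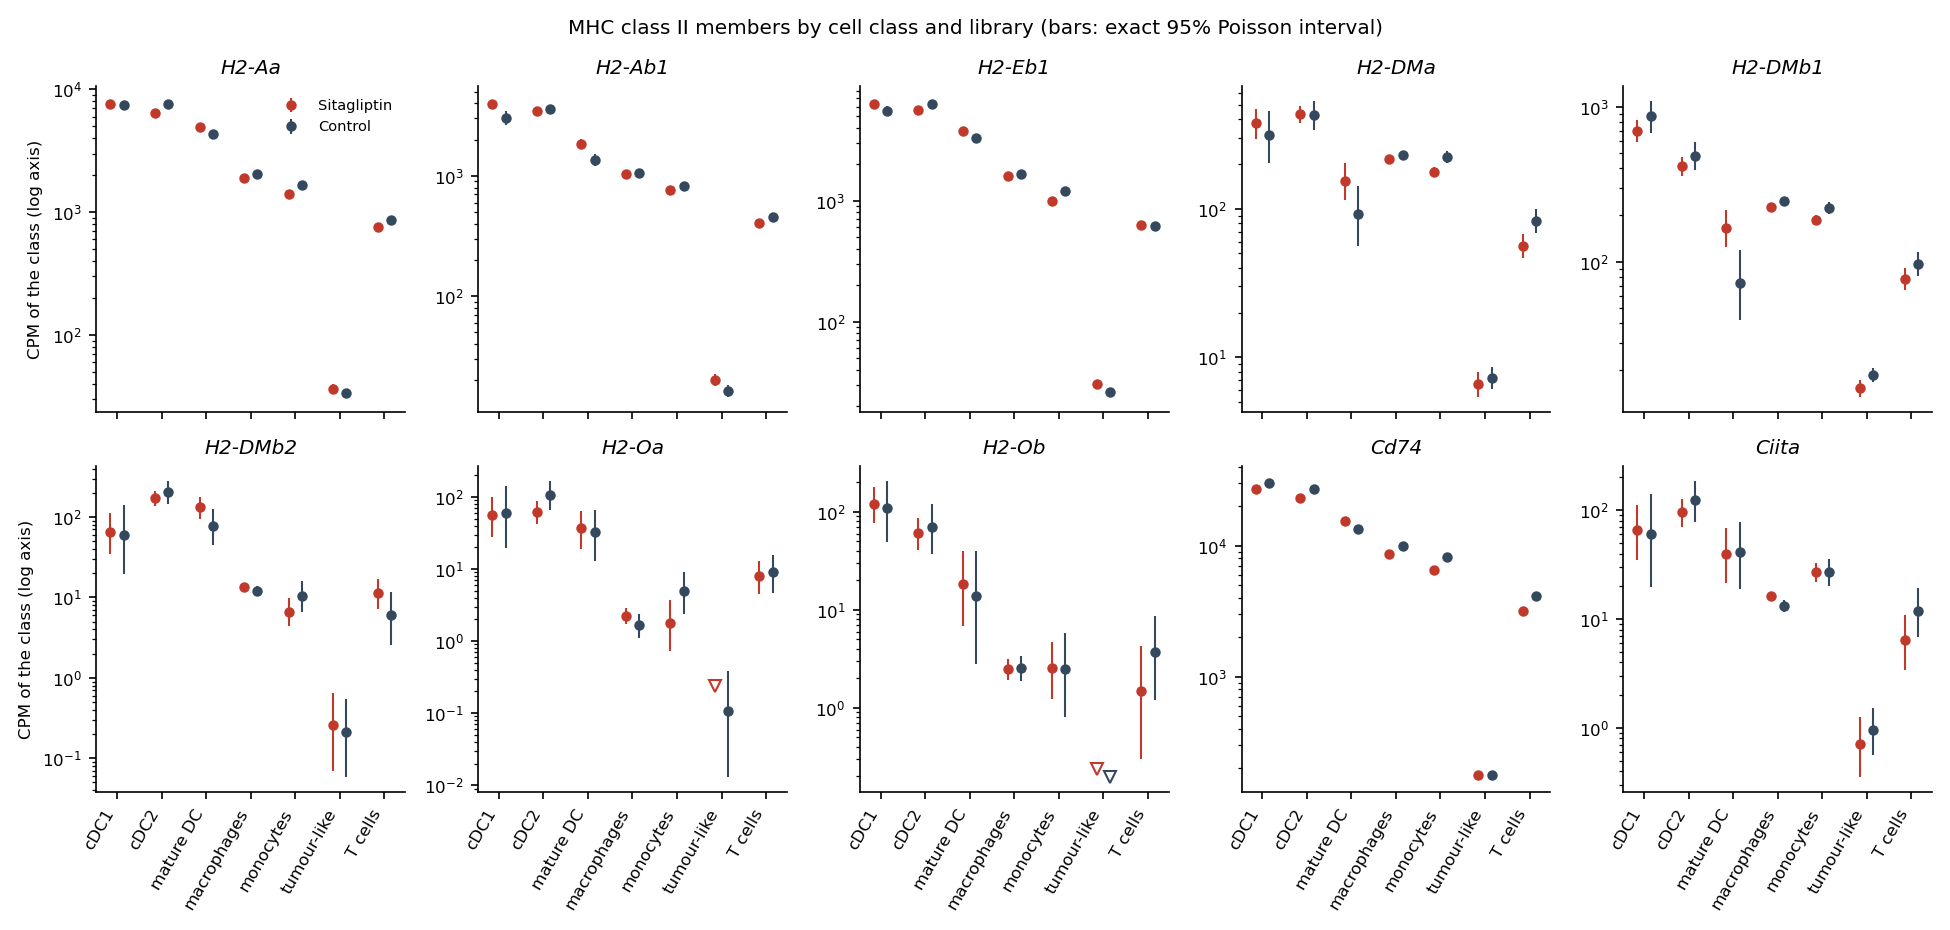
Level of each class II gene in CPM of the class (log axis) by cell class, sitagliptin in red left of control in dark blue, with exact 95% Poisson intervals; an open triangle marks the upper limit where no UMI was read. H2-DMa, H2-DMb1 and the classical genes differ between cDC1 and macrophages by less than 5-fold, whereas H2-Oa and H2-Ob drop much further, to about 2 CPM in macrophages.

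The genes did not share 1 pattern over the classes. Against macrophages of the same library, cDC1 had 3.99-fold (3.79 to 4.20) H2-Aa in the sitagliptin library and 3.62-fold (3.34 to 3.92) in the control library. For Cd74 the cDC1 fold was 3.10 (3.02 to 3.19) with sitagliptin and 3.02 (2.90 to 3.14) in control. The loading chain gene H2-DMa had cDC1 folds of 1.74 (1.37 to 2.19) with sitagliptin and 1.36 (0.885 to 1.99) in control. The intervals of H2-Aa and Cd74 thus lay above that of H2-DMa in both libraries.

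H2-O was read chiefly in dendritic cells among the main classes. H2-Ob had 121 CPM with sitagliptin and 108 CPM with control in cDC1 and 2.51 CPM with sitagliptin and 2.55 CPM with control in macrophages, a fold of 48.2 (28.9 to 77.9) in the sitagliptin library and 42.5 (18.3 to 87.6) in the control library. H2-Oa had 62.4 CPM with sitagliptin and 107 CPM with control in cDC2 and 2.24 CPM with sitagliptin and 1.65 CPM with control in macrophages, folds of 27.8 (17.5 to 43.4) with sitagliptin and 65.2 (35.2 to 118) in control. These levels rest on few UMIs, of H2-Oa in cDC2 on 32 with sitagliptin and 20 in control, and of H2-Ob in cDC1 on 24 with sitagliptin and 9 in control. As a share of all class II UMIs, H2-O made up 0.382% in cDC1, 0.310% in cDC2, 0.209% in mature dendritic cells and 0.0347% in macrophages with sitagliptin. In control it made up 0.356% in cDC1, 0.384% in cDC2, 0.201% in mature dendritic cells and 0.0276% in macrophages. T cells had 7.87 CPM (4.50 to 12.8, 16 UMIs) of H2-Oa with sitagliptin and 8.97 CPM (4.64 to 15.7, 12 UMIs) in control, both above the macrophage level, and their H2-Ob stood at 1.48 CPM with sitagliptin and 3.74 CPM in control.

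The beta chain of H2-DM changed its gene between classes. H2-DMb1 gave 94.4% of beta chain UMIs in macrophages, 96.5% in monocytes and 91.5% in cDC1 with sitagliptin. In control it gave 95.3% in macrophages, 95.5% in monocytes and 93.5% in cDC1. In cDC2 the share was 70.7% (65.2 to 75.8) with sitagliptin and 70.3% (61.6 to 78.1) in control. In mature dendritic cells it was 55.7% (45.2 to 65.8) with sitagliptin and 48.5% (30.8 to 66.5) in control. H2-DMb2 had 172 CPM with sitagliptin and 204 CPM with control in cDC2 and 13.3 CPM with sitagliptin and 12.2 CPM with control in macrophages. That made folds of 12.9 (10.1 to 16.3) with sitagliptin and 16.8 (11.6 to 23.7) in control, while the folds of H2-DMb1 were 1.83 (1.59 to 2.10) with sitagliptin and 1.97 (1.58 to 2.43) in control. H2-DMb2 stood 6th among the genes leading cDC2 over all other classes. The transcripts of these neighbours are alike, with 88.8% identity over 1252 aligned bases (GENCODE M21), so counts can be split between them. In the first 500 bases, where a 5′ library is read, no 90-base stretch of H2-DMb1 recurred in H2-DMb2.

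**Figure D2:**
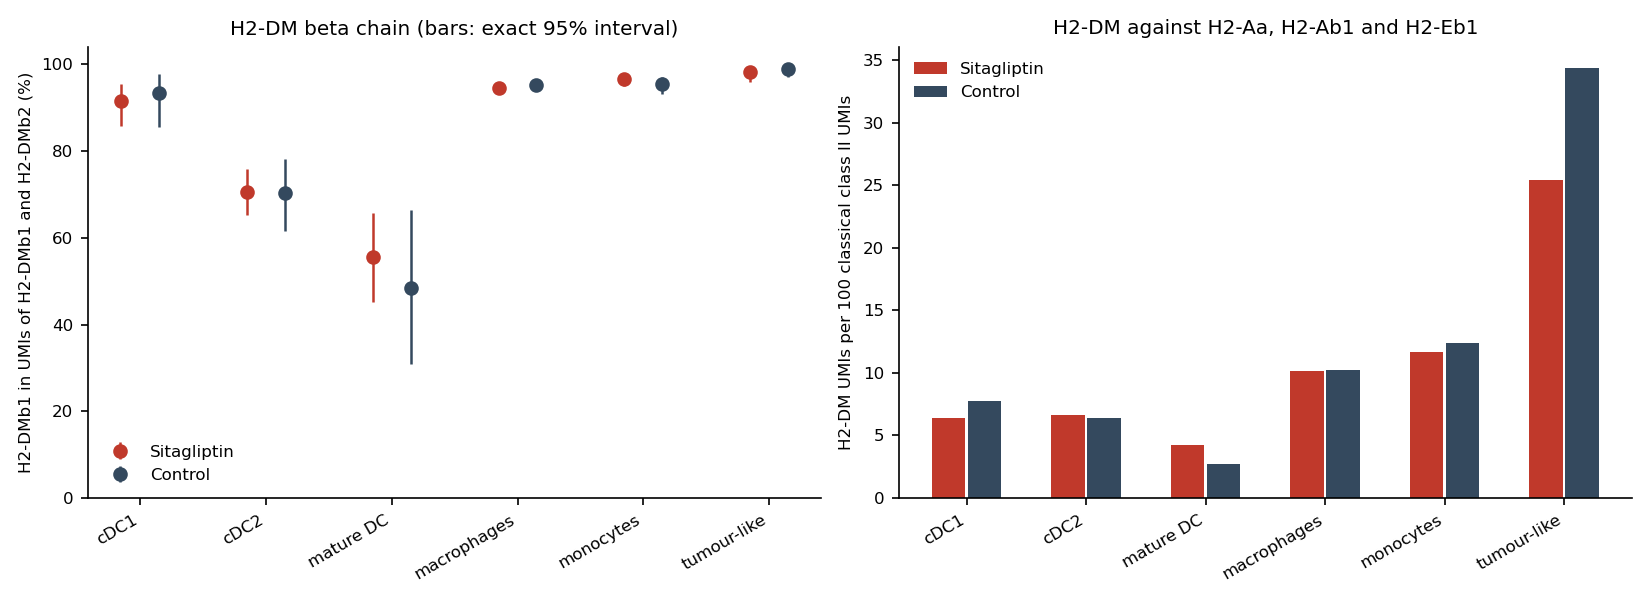
Left, H2-DMb1 as a percentage of the UMIs of H2-DMb1 and H2-DMb2 by class, with exact 95% binomial intervals; right, H2-DM UMIs per 100 UMIs of H2-Aa, H2-Ab1 and H2-Eb1; sitagliptin in red left of control. Among the classes drawn the H2-DMb1 share is above 90% except in cDC2 and mature dendritic cells, and tumour-like cells stand out on the right with 25.5 (sitagliptin) and 34.4 (control).

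Per 100 classical UMIs of the sitagliptin library, H2-DM gave 10.1 in macrophages, 11.7 in monocytes, 6.43 in cDC1, 6.62 in cDC2 and 4.28 in mature dendritic cells. In control it gave 10.2 in macrophages, 12.4 in monocytes, 7.76 in cDC1, 6.41 in cDC2 and 2.70 in mature dendritic cells. Mature dendritic cells thus read the least H2-DM beside their groove chains, and their levels of H2-DMa and H2-DMb1 lay below those of macrophages. H2-DMa had 154 CPM with sitagliptin and 91.6 CPM with control in mature dendritic cells and 217 CPM with sitagliptin and 231 CPM with control in macrophages. H2-DMb1 had 166 CPM with sitagliptin and 73.3 CPM with control in mature dendritic cells, and 226 CPM with sitagliptin and 245 CPM with control in macrophages. Ciita followed yet another order. With sitagliptin it had 95.6 CPM in cDC2, 65.5 CPM in cDC1, 39.98 CPM in mature dendritic cells, 27.0 CPM in monocytes and 16.3 CPM in macrophages. In control it had 123 CPM in cDC2, 60.2 CPM in cDC1, 41.2 CPM in mature dendritic cells, 27.0 CPM in monocytes and 13.3 CPM in macrophages. Monocytes had 1.65-fold (1.32 to 2.05) the Ciita level of macrophages with sitagliptin and 2.04-fold (1.49 to 2.74) in control. Their Cd74 level was 0.747-fold (0.737 to 0.757) that of macrophages with sitagliptin and 0.827-fold (0.814 to 0.840) in control.

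Single barcodes within a class differed widely outside the conventional dendritic cells. The median cDC1 had 477 class II UMIs per 10000 UMIs with sitagliptin (quartiles 364 to 563) and 436 in control (360 to 595). The median cDC2 had 459 with sitagliptin and 453 in control. In mature dendritic cells the median was 106 with sitagliptin (39.4 to 458) and 150 in control (39.1 to 326), so low and high barcodes stood side by side. Macrophages had a median of 73.9 with sitagliptin (19.0 to 215) and 89.5 in control (22.2 to 263). Monocytes had a median of 22.4 with sitagliptin and 41.2 in control, and their top 10% of barcodes held 49.3% of all class II UMIs with sitagliptin and 45.4% in control.

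**Figure D3:**
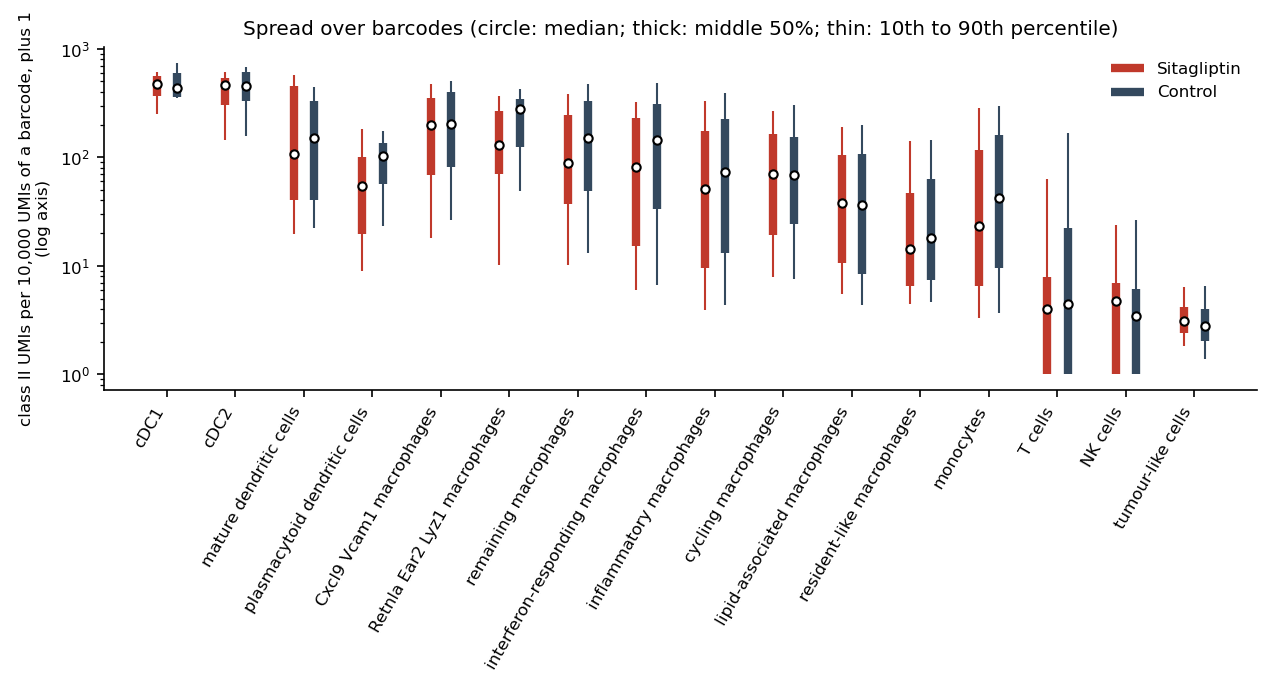
Class II UMIs per 10,000 UMIs of single barcodes, plus 1 (log axis), by class and macrophage program, sitagliptin in red left of control; circles are medians, thick bars the middle 50% and thin bars the 10th to 90th percentiles. cDC1 and cDC2 are high and narrow, mature dendritic cells and macrophage programs span more than a factor of 10 between the ends of the thin bars (except macrophages with Retnla, Ear2 and Lyz1 in the control library), and T, NK and tumour-like cells lie near the bottom.

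Class II transcript was slightly less abundant in sitagliptin than in control macrophages. The summed ratio was 0.901 (0.896 to 0.905). Cd74 had 8694 CPM with sitagliptin and 9907 CPM in control, a ratio of 0.878 (0.872 to 0.883), and H2-Aa 1886 CPM with sitagliptin and 2061 CPM in control, a ratio of 0.915 (0.903 to 0.927). H2-Ab1 (1030 CPM with sitagliptin and 1055 CPM in control, ratio 0.977, 0.959 to 0.995) and H2-Eb1 (1589 CPM with sitagliptin and 1658 CPM in control, ratio 0.959, 0.945 to 0.973) were closer to 1, and H2-Ab1 turned to 1.01 when CPM were scaled to the median gene. Of 10 genes, 3 were higher and 7 lower, and 1 was at least 25% higher, H2-Oa (2.24 CPM with sitagliptin and 1.65 CPM in control, ratio 1.36, 0.869 to 2.18). Of the 7 lower genes H2-Ob turned as well as H2-Ab1 when scaled to the median gene, from 0.983 to 1.01. Over all 12890 genes with at least 20 UMIs, 43.2% were higher and 56.8% lower by any amount. At least 25% higher were 10.6% and at least 20% lower 10.2%, and 1 of 10 is a share near that background. The median log2 ratio of the class II genes was -0.05, beside -0.04 over all genes.

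The size of the difference depended on the macrophage program and on how barcodes were weighted. Macrophages were divided by lists of program genes, and those over no limit, 1440 barcodes with sitagliptin and 1108 barcodes in control, are called remaining macrophages. In the interferon-responding program the sum was 13257 CPM with sitagliptin and 19565 CPM in control (ratio 0.678, 0.662 to 0.693), from 136 barcodes with sitagliptin and 126 barcodes in control. Macrophages with Retnla, Ear2 and Lyz1 had 19103 CPM with sitagliptin and 25603 CPM in control (ratio 0.746, 0.721 to 0.772), from 54 barcodes with sitagliptin and 29 barcodes in control. The remaining macrophages had 16151 CPM with sitagliptin and 20283 CPM in control (ratio 0.796, 0.791 to 0.802). Cycling macrophages had 11390 CPM in both libraries (ratio 1.0, 0.985 to 1.02). Macrophages with Cxcl9 and Vcam1 had 22590 CPM with sitagliptin and 23815 CPM in control (ratio 0.949, 0.938 to 0.960). The lowest programs were lipid-associated macrophages with 6864 CPM with sitagliptin and 7533 CPM in control (ratio 0.911) and resident-like ones with 4462 CPM with sitagliptin and 4879 CPM in control (ratio 0.915). Inflammatory macrophages lay at 12701 CPM with sitagliptin and 14988 CPM in control (ratio 0.847). The Cxcl9 and Vcam1 program, the one with the most class II transcript in the sitagliptin library, held 11.7% (10.6 to 12.9) of macrophages with sitagliptin and 9.22% (8.13 to 10.4) in control. With each barcode weighted alike the ratio was 0.836, and with the control shares of programs in both libraries as well it was 0.793. Barcodes with at least 100 class II UMIs per 10000 made up 42.7% (41.0 to 44.5) of sitagliptin and 47.8% (45.8 to 49.7) of control macrophages.

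**Figure D4:**
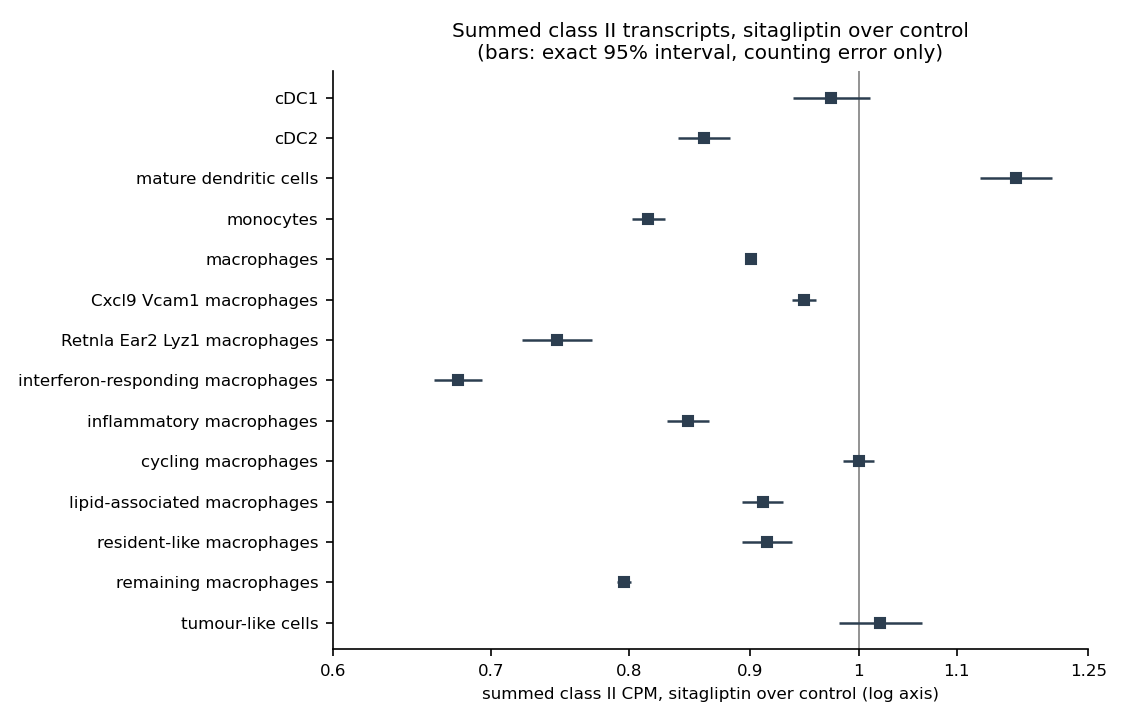
Ratio of summed class II CPM, sitagliptin over control (log axis), by class and macrophage program, with exact 95% intervals for counting error only; the vertical line is 1. Of the classes drawn, interferon-responding macrophages have the lowest ratio (0.678), cycling macrophages lie on 1, and mature dendritic cells are highest (1.17); T and NK cells are not drawn.

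Macrophages were grouped in quartiles of H2-Aa, H2-Ab1 and H2-Eb1 UMIs per 10000, with limits from both libraries together. These genes formed the groups, so the values are a description. From the lowest to the highest quartile Cd74 had 715, 3277, 9813 and 21276 CPM in the sitagliptin library, and 797, 3983, 10947 and 24226 CPM in the control library. Ciita had 1.82, 5.01, 18.1 and 40.8 CPM in the sitagliptin library, and 0.995, 5.31, 12.7 and 34.3 CPM in the control library. Both thus climbed with the groove chains, quartile by quartile. H2-DMb1 had 41.9 CPM with sitagliptin and 41.6 CPM with control in the lowest quartile and 535 CPM with sitagliptin and 594 CPM with control in the highest. H2-DMa was flatter, with 116 CPM with sitagliptin and 124 CPM with control in the lowest quartile and 371 CPM with sitagliptin and 382 CPM with control in the highest, so macrophages with almost no groove chain transcript still carried it. Spp1, the gene for osteopontin, went the other way, at 3518 CPM with sitagliptin and 5113 CPM with control in the lowest quartile and 1211 CPM with sitagliptin and 1564 CPM with control in the highest. So did Arg1, the gene for arginase 1, at 3747 CPM with sitagliptin and 3934 CPM with control in the lowest and 1636 CPM with sitagliptin and 1720 CPM with control in the highest. The highest quartile held 23.5% of sitagliptin and 26.8% of control macrophages, with median depths of 8445 UMIs with sitagliptin and 6107 UMIs in control.

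**Figure D5:**
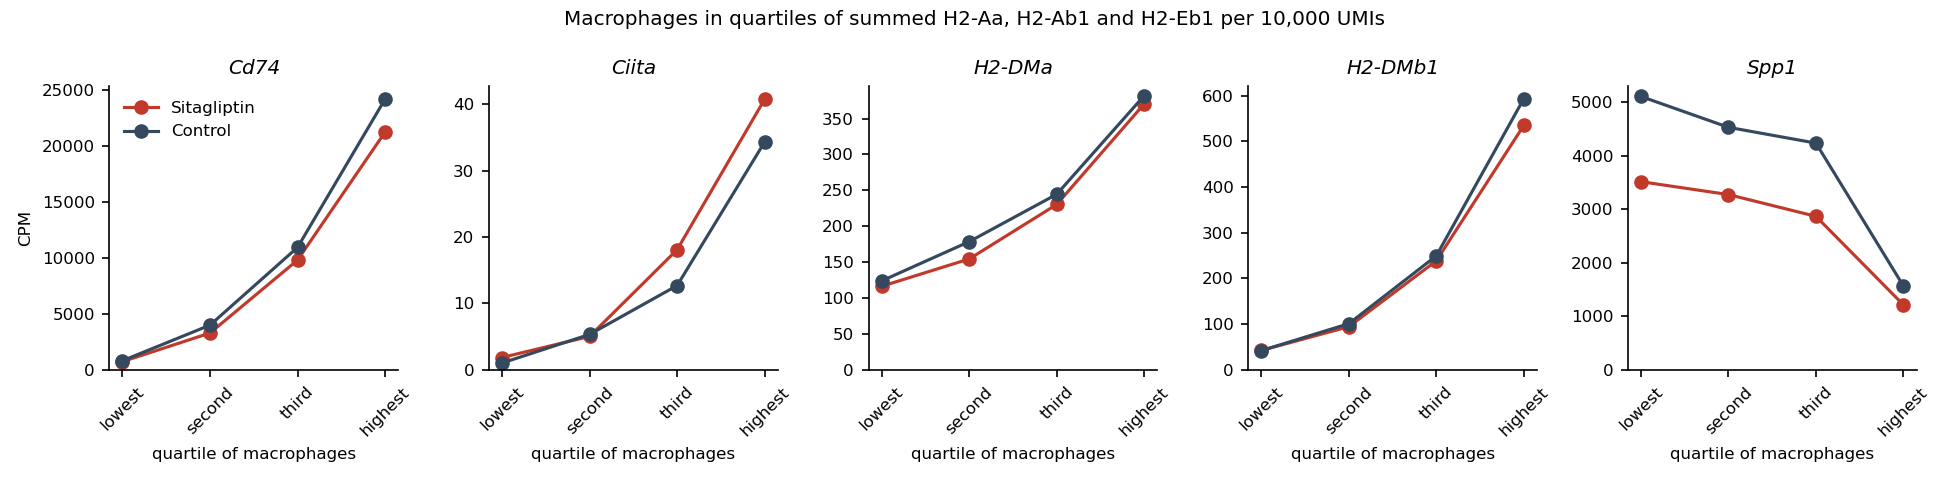
CPM of Cd74, Ciita, H2-DMa, H2-DMb1 and Spp1 in quartiles of macrophages by summed H2-Aa, H2-Ab1 and H2-Eb1 per 10,000 UMIs, sitagliptin in red and control in dark blue, 1 summed value per point without error bars. Cd74, Ciita and H2-DMb1 climb steeply, H2-DMa is already at 116 CPM (sitagliptin) and 124 CPM (control) in the lowest quartile, and Spp1 declines.

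Ciita did not share the direction of Cd74 and the classical genes in macrophages. It had 16.3 CPM (436 UMIs) in the sitagliptin library and 13.3 CPM (250 UMIs) in the control library, a ratio of 1.23 (1.05 to 1.44). Of macrophages, 11% with sitagliptin and 7.71% in control had a Ciita UMI. After thinning each barcode to 2000 UMIs the shares were 3.05% with sitagliptin and 2.98% in control, so the share of macrophages with Ciita was not higher at equal depth beyond counting error. By program the Ciita ratio was 2.27 (1.03 to 5.36) in lipid-associated macrophages, 2.10 (0.913 to 5.41) in resident-like ones and 1.67 (0.764 to 3.93) in interferon-responding ones, from 22, 24 and 23 UMIs with sitagliptin and 10, 8 and 10 UMIs in control. In remaining macrophages it was 1.0 (0.792 to 1.27) and in the Cxcl9 and Vcam1 program 0.903 (0.655 to 1.252).

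In monocytes nearly all measured class II genes were lower in the sitagliptin library. The summed ratio was 0.815 (0.802 to 0.828). Cd74 had 6495 CPM with sitagliptin and 8191 CPM in control (ratio 0.793, 0.777 to 0.809), H2-DMa 178 CPM with sitagliptin and 223 CPM in control (ratio 0.798, 0.708 to 0.901) and H2-DMb1 186 CPM with sitagliptin and 222 CPM in control (ratio 0.836, 0.742 to 0.943). H2-Aa (1415 CPM with sitagliptin and 1663 CPM in control, ratio 0.851) and H2-Eb1 (1001 CPM with sitagliptin and 1190 CPM in control, ratio 0.841) were lower too. Of 8 genes with at least 20 UMIs all 8 lay below 1 and 3 were at least 20% lower, Cd74, H2-DMa and H2-DMb2, the last with 26 UMIs with sitagliptin and 21 UMIs in control. Scaled to the median gene, Cd74 gave 0.828 and H2-DMa 0.834, and of these 3 only H2-DMb2, at 0.663, stayed at least 20% lower. Ciita, at 27.0 CPM in both, had a ratio of 0.997 (0.712 to 1.41) and turned to 1.04 when scaled to the median gene. Over the 8996 genes measured, 60.5% lay below 1, 11.6% were at least 25% higher and 21.8% at least 20% lower. The median log2 ratio of the class II genes was -0.25, beside -0.08 for all genes. Monocytes were called with lower depth in the control library (3885 UMIs with sitagliptin and 3079 UMIs in control), and without barcodes under 3000 UMIs the ratio was 0.755. In these barcodes the lipid-associated list summed to 1432 CPM with sitagliptin and 2310 CPM in control. The neutrophil list summed to 101 CPM with sitagliptin and 191 CPM in control. The Cxcl9 and Vcam1 list was higher, at 2424 CPM with sitagliptin and 1831 CPM in control. The part of these lists in the result was not tested.

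In cDC1 the groove chains and the invariant chain differed in direction. H2-Ab1 had 3924 CPM with sitagliptin and 3036 CPM in control (ratio 1.29, 1.12 to 1.5) and H2-Eb1 6326 CPM with sitagliptin and 5494 CPM in control (ratio 1.15, 1.03 to 1.28), whereas Cd74 had 26982 CPM with sitagliptin and 29925 CPM in control (ratio 0.902, 0.860 to 0.946). H2-Aa, at 7530 CPM with sitagliptin and 7457 CPM in control, had a ratio of 1.01 (0.919 to 1.11). The sum over all genes gave 0.974 (0.938 to 1.01), and without Cd74 1.1 (1.03 to 1.17). Of 7 measured genes 1, H2-Ab1, was at least 25% higher and 0 were at least 20% lower, beside 29.9% and 27.9% of 2284 genes. These values come from 29 barcodes with sitagliptin and 18 barcodes in control, with T cell list genes at 20.1 CPM with sitagliptin and 157 CPM in control, whose part in the result was not tested.

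In cDC2 the summed ratio was 0.861 (0.839 to 0.883), with Cd74 at 23069 CPM with sitagliptin and 27292 CPM in control (ratio 0.845, 0.818 to 0.874) and H2-Aa at 6361 CPM with sitagliptin and 7539 CPM in control (ratio 0.844, 0.792 to 0.899). H2-Ab1 (3445 CPM with sitagliptin and 3606 CPM in control, ratio 0.955, 0.874 to 1.05) and H2-DMa (433 CPM with sitagliptin and 429 CPM in control, ratio 1.01, 0.778 to 1.32) had intervals that included 1. Ciita had 95.6 CPM with sitagliptin and 123 CPM in control, from 49 UMIs with sitagliptin and 23 UMIs in control (ratio 0.774, 0.463 to 1.33), and H2-Oa a ratio of 0.582 (0.323 to 1.07). These last genes were the 2 of 10 at least 20% lower, and 0 were at least 25% higher, beside 27.8% and 24.7% of 4470 genes. The cDC2 barcodes also differed in genes of mature dendritic cells, whose list summed to 1371 CPM with sitagliptin and 757 CPM in control, and of macrophages and monocytes, at 973 CPM with sitagliptin and 698 CPM in control. The lipid-associated list summed to 1762 CPM with sitagliptin and 333 CPM in control, and the Retnla, Ear2 and Lyz1 list to 1135 CPM with sitagliptin and 225 CPM in control. Their part in the result was not tested.

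Mature dendritic cells were the one main class whose summed class II interval lay above 1, and the direction turned when classes were called more strictly. The sum was 26537 CPM with sitagliptin and 22776 CPM in control, a ratio of 1.17 (1.13 to 1.21). H2-Ab1 had 1857 CPM with sitagliptin and 1346 CPM in control (ratio 1.38, 1.2 to 1.59), H2-Aa 4951 CPM with sitagliptin and 4337 CPM in control (ratio 1.14, 1.05 to 1.24) and Cd74 15421 CPM with sitagliptin and 13460 CPM in control (ratio 1.15, 1.09 to 1.2). The H2-DM genes together had a ratio of 1.86 (1.35 to 2.60), and H2-DMb1, with 54 UMIs with sitagliptin and 16 UMIs in control, 2.27 (1.28 to 4.24). Of 8 measured genes 4 were at least 25% higher and 0 were at least 20% lower, beside 21.7% and 27.8% of 3661 genes. Of the 4, H2-DMa (ratio 1.68, 0.981 to 2.98) and H2-DMb2 (ratio 1.70, 0.949 to 3.18) had intervals that included 1. With doubled marker limits, which left 53 of 62 barcodes with sitagliptin and 50 of 59 in control, the summed ratio turned to 0.968, from 22468 CPM with sitagliptin and 23212 CPM in control. Barcodes with at least 100 class II UMIs per 10000 made up 51.6% of the class with sitagliptin and 55.9% in control. The median barcode was lower in the sitagliptin library (106 per 10000) than in the control library (150 per 10000), and the top 10% of barcodes held 38.6% of the UMIs with sitagliptin and 37.5% in control. cDC2 list genes summed to 1027 CPM with sitagliptin and 719 CPM with control in these barcodes and cDC1 list genes to 249 CPM with sitagliptin and 101 CPM in control. Their part in the result was not tested.

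Tumour-like cells held few class II transcripts, in proportions unlike those of macrophages. Cd74 had 177 CPM with sitagliptin and 178 CPM in control, H2-Aa 36.5 CPM with sitagliptin and 33.7 CPM in control and H2-DMb1 15.2 CPM with sitagliptin and 18.6 CPM in control, while H2-Ob had 0 UMIs in both libraries, which allows up to 0.236 CPM with sitagliptin and 0.196 CPM in control. H2-Oa had 0 UMIs with sitagliptin and 2 UMIs in control. The summed ratio was 1.02 (0.981 to 1.06). The groove chains together had a ratio of 1.14 (1.06 to 1.23), H2-Ab1 1.24 (1.05 to 1.45), and H2-DMb1 0.820 (0.692 to 0.969). Barcodes with over 3 UMIs of the macrophage and immune lists were 368 of 730 with sitagliptin and 293 of 1205 in control. In these H2-Aa, H2-Ab1 and H2-Eb1 were lower with sitagliptin, and in those with 1 to 3 they were higher. Without any such UMI, H2-Ab1 was higher and H2-Aa and H2-Eb1 were lower. The part of this mix in the ratios was not tested. Of 7 measured genes 0 were at least 25% higher and 1, Ciita with 11 UMIs with sitagliptin and 18 UMIs in control, was at least 20% lower, beside 10.6% and 10.3% of 12904 genes.

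Tumour-like cells had 0.0204-fold (0.0196 to 0.0211) the Cd74 level of macrophages with sitagliptin and 0.0179-fold (0.0173 to 0.0186) in control. For H2-DMb1 the folds were 0.0675 (0.0590 to 0.0768) with sitagliptin and 0.0758 (0.0678 to 0.0846) in control, above those of Cd74. H2-DMb1 made up 5.32% (4.68 to 6.02) of their class II UMIs with sitagliptin and 6.63% (5.97 to 7.33) in control. In macrophages it made up 1.65% (1.61 to 1.69) with sitagliptin and 1.61% (1.57 to 1.66) in control. Class II UMIs per 100 UMIs of the macrophage genes C1qa, C1qb and C1qc were 476 with sitagliptin and 562 with control in tumour-like cells, and 235 with sitagliptin and 215 with control in macrophages. The part of free RNA in these levels was not tested. In tumour-like barcodes without any UMI of the macrophage and immune lists (48 barcodes with sitagliptin and 226 barcodes in control), H2-DMb1 stood at 15.4 CPM with sitagliptin and 14.0 CPM in control and Cd74 at 152 CPM with sitagliptin and 126 CPM in control. In those with over 3 such UMIs (368 barcodes with sitagliptin and 293 barcodes in control), H2-DMb1 stood at 16.7 CPM with sitagliptin and 22.7 CPM in control and Cd74 at 203 CPM with sitagliptin and 283 CPM in control. After thinning to 2000 UMIs, a Cd74 UMI was in 29.9% of tumour-like barcodes with sitagliptin and 25.2% in control, against 39.5% of T cells with sitagliptin and 45.3% in control. An H2-DMb1 UMI was in 2.19% of tumour-like barcodes with sitagliptin and 3.82% in control, against 5.19% of T cells with sitagliptin and 6.92% in control. Before thinning the median depth was 20471 UMIs with sitagliptin and 14963 UMIs with control in tumour-like cells and 3509 UMIs with sitagliptin and 3646 UMIs with control in T cells. Both shares lay below those of T cells, which in the mouse make next to no class II. The classes differ in depth and in macrophage list UMIs, so T cells give no matched background. The part of expression in these shares was not tested. The macrophage and monocyte list summed to 107 CPM with sitagliptin and 85.8 CPM with control in tumour-like cells, and to 406 CPM with sitagliptin and 569 CPM with control in T cells. H2-DMb1 made up 1.51% (1.29 to 1.76) of class II UMIs in T cells with sitagliptin and 1.55% (1.29 to 1.83) in control, near the macrophage share and below that of tumour-like cells.

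T and NK cells were read as a background. T cells summed to 5144 CPM with sitagliptin and 6291 CPM in control, but the median barcode had 2.96 class II UMIs per 10000 with sitagliptin and 3.42 in control, and the top 10% of barcodes held 91.6% of the UMIs with sitagliptin and 70.2% in control. NK cells had 2847 CPM with sitagliptin and 1269 CPM in control (ratio 2.24, 1.99 to 2.53), with medians of 3.79 per 10000 with sitagliptin and 2.45 in control. Their top 10% of barcodes held 89.8% of the UMIs with sitagliptin and 73.2% in control. A minority of barcodes with many class II UMIs thus set both sums, and 39 T cell barcodes with sitagliptin and 45 in control had at least 100 per 10000. Of NK barcodes, 3 of 107 with sitagliptin and 1 of 66 in control did. The interval of the NK ratio does not cover differences between barcodes. The macrophage and monocyte list summed to 328 CPM with sitagliptin and 433 CPM with control in NK cells, beside the T cell values above. Its part in these sums was not tested.

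Of 41 listed genes around the pathway, 37 symbols were in the files, and few were 25% higher or 20% lower in the large classes. In macrophages 1 of 37 measured was higher and 2 lower, where 10.6% of all genes were higher and 10.2% lower. In monocytes 1 of 36 was higher and 6 lower, where 11.6% of all genes were higher and 21.8% lower. In macrophages Ctsd, a lysosomal protease, had 373 CPM with sitagliptin and 486 CPM in control (ratio 0.768, 0.747 to 0.790), and Irf4, a factor that acts on Ciita, had 8.23 CPM with sitagliptin and 6.11 CPM in control (ratio 1.35, 1.07 to 1.70). Ctss, the protease that makes the last cut in the invariant chain in dendritic cells, stayed within the limit in macrophages at 3247 CPM with sitagliptin and 3320 CPM in control (ratio 0.978). In monocytes the lower genes with at least 100 UMIs were Ctsl (454 CPM with sitagliptin and 576 CPM in control, ratio 0.789), Ctsd (ratio 0.796), Cd9 (ratio 0.776), Icam1 (ratio 0.753) and Nfya (24.1 CPM with sitagliptin and 33.5 CPM in control, ratio 0.720), a subunit of the Y box factor, and Cd82 was higher (19.8 CPM with sitagliptin and 13 CPM in control, ratio 1.52, 0.963 to 2.47). These ratios were not scaled to the median gene, which stood at 0.957 in monocytes, and Ctsl, Ctsd and Cd9 lay close to the limit.

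In cDC2 10 of 31 measured pathway genes were at least 25% higher and 8 at least 20% lower, where 24.7% of all genes were higher and 27.8% lower. Among those with at least 100 UMIs, Ifngr1, a chain of the interferon gamma receptor, was lower at 568 CPM with sitagliptin and 762 CPM in control (ratio 0.745, 0.607 to 0.917) and so was Ifngr2, its other chain, at 185 CPM with sitagliptin and 300.5 CPM in control (ratio 0.617, 0.439 to 0.874). Of the kinase genes of that receptor, Jak2 had a ratio of 0.780 (0.598 to 1.02) and Jak1 of 1.17 (0.821 to 1.69), both with intervals that included 1, and Irf1, a target factor, had 1.08 (0.871 to 1.34). The proteases Ctss (1814 CPM with sitagliptin and 1374 CPM in control, ratio 1.32, 1.15 to 1.52) and Ctsb (170 CPM with sitagliptin and 85.9 CPM in control, ratio 1.98, 1.15 to 3.61) were higher, and Ifi30, a thiol reductase of the endosome, was lower (693 CPM with sitagliptin and 875 CPM in control, ratio 0.792). Cd83, which keeps class II on the surface, had 478.5 CPM with sitagliptin and 277 CPM with control in cDC1 (ratio 1.73, 1.09 to 2.85) and 390 CPM with sitagliptin and 300.5 CPM with control in cDC2 (ratio 1.30, 0.961 to 1.78). In cDC1, where 2 of 20 were higher and 3 lower, beside 29.9% and 27.9% of all genes, Ifngr1 was among the lower (594 CPM with sitagliptin and 819 CPM in control, ratio 0.726). In mature dendritic cells 4 of 29 were higher and 4 lower, beside 21.7% and 27.8% of all genes, among them Cd40 (246 CPM with sitagliptin and 179 CPM in control, ratio 1.38, 0.928 to 2.07), Cd9 (ratio 0.609), Ifngr1 (ratio 0.750) and Spi1 (ratio 0.693, 0.480 to 1.0). In tumour-like cells 4 of 35 were higher and 1 lower, beside 10.6% and 10.3% of all genes.

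Class II genes and all genes of the marker lists were left out of a ranking by likeness to the class II sum. Of the genes ranked, Plbd1, Csf2rb, Irf5, Gm2a and Htr7 followed it most closely by Pearson's r. Pearson's r of log2(CPM + 1) with the summed class II level was 0.947 for Plbd1, 0.932 for Csf2rb, 0.920 for Irf5, 0.907 for Gm2a and 0.906 for Htr7, over 32 values of 16 classes in 2 libraries, among 12297 genes with at least 100 UMIs. The values share libraries and depth, and r is given as a description. Spearman's rho ordered these genes otherwise, at 0.894 for Htr7, 0.868 for Irf5, 0.836 for Plbd1, 0.797 for Csf2rb and 0.720 for Gm2a. Csf2rb had 301 CPM with sitagliptin and 293 CPM with control in monocytes. In cDC1 it had 242 CPM with sitagliptin and 241 CPM with control, an order unlike that of the class II sum. Plbd1, a phospholipase B-like gene, had 2216 CPM with sitagliptin and 1699 CPM with control in cDC1, 1005 CPM with sitagliptin and 1095 CPM with control in cDC2, 427 CPM with sitagliptin and 256 CPM with control in mature dendritic cells and 5.38 CPM with sitagliptin and 4.14 CPM with control in tumour-like cells. Htr7, a serotonin receptor gene, had 363 CPM with sitagliptin and 361 CPM with control in cDC1 and 1.15 CPM with sitagliptin and 0.372 CPM with control in tumour-like cells. Among the class II genes themselves r with the sum was 0.999 for Cd74 and at least 0.992 for the groove chains, 0.822 for Ciita, 0.635 for H2-Ob and 0.551 for H2-Oa.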

How the data were processed

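Droplet libraries of CD45-enriched cells from MC38-OVA tumours came from the SeekOne DD 5′ kit, per the labels' protocols. The deposited matrices hold raw UMI counts per gene and barcode for 32285 features (32245 symbols). The labels name no aligner, counting program, genome build or barcode filter. The lowest barcode in each held 2001 UMIs.

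From these counts, barcodes were scored with Scrublet (in scanpy 1.11.5) at an expected doublet rate of 0.06. Its automatic threshold called 0, so the 6% with the highest scores in each library were removed (586 and 522), leaving 9180 sitagliptin and 8172 control barcodes. No cell type annotation was used. Classes were called from UMIs of marker genes, none of them a class II gene, per 10000 UMIs of the barcode, with limits on markers of other classes. Counts were summed per class and library and given as CPM, counts per 1000000 UMIs. Intervals at 95% are exact Poisson for CPM, exact conditional binomial for ratios and Clopper-Pearson for shares. A gene counted as measured at 20 or more UMIs over both libraries, and as past the limit when at least 25% higher or 20% lower. Shares of barcodes with a UMI were also taken after thinning each barcode to 2000 UMIs. The ratio code was run on simulated Poisson counts with known folds, drawn from the control macrophage sums. These counts hold no variation between barcodes, libraries or mice, so the run cannot speak to it. Pathway genes were named where they passed that limit in macrophages, monocytes or dendritic cells with 100 or more UMIs. A further 5 genes, outside the class II genes and marker lists, were named by correlation with the class II sum. One pathway gene that met the rule is not reported here. The class II genes, the marker and pathway lists and their limits were chosen with earlier results of these data known. Alternatives covered the CPM base, thinning, doublets, marker limits, UMI minimum and program mix. Python 3.11.15, numpy 2.4.6, scipy 1.17.1, pandas 2.3.3, anndata 0.12.19, matplotlib 3.10.9 and biopython 1.88 were used.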

Additional observations from a re-analysis of the deposited data

Results flagged for a closer look

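Among the main classes (cDC1, cDC2, mature dendritic cells, macrophages as a whole, monocytes and tumour-like cells), the sitagliptin to control ratio of several class II genes lay above 1 in one class and below 1 in another, with intervals that excluded 1 in both. The difference between the classes was not tested, since each diet had 1 library. The intervals cover counting error only and are narrow for abundant genes. The share of all genes that meet this rule was not taken. H2-Aa had a ratio of 1.14 in mature dendritic cells and 0.844 in cDC2. H2-Ab1 had 1.38 in mature dendritic cells and 0.921 (0.867 to 0.978) in monocytes, the latter 0.962 when scaled to the median gene. H2-Eb1 had 1.16 in tumour-like cells and 0.841 in monocytes. Its direction in tumour-like barcodes varied with their UMIs of the macrophage and immune lists. Without any, H2-Eb1 had 11.5 CPM with sitagliptin and 16.5 CPM in control. With 1 to 3 it had 27.1 CPM with sitagliptin and 21.0 CPM in control. With over 3 it had 33.1 CPM with sitagliptin and 39.9 CPM in control. H2-DMb1 had 2.27 in mature dendritic cells and 0.820 in tumour-like cells. Cd74 had 1.15 in mature dendritic cells and 0.793 in monocytes, and the sum over all class II genes 1.17 and 0.815. For each gene the pair given is the main class with the highest and the main class with the lowest ratio whose interval excluded 1. Macrophage programs and T, NK and plasmacytoid dendritic cells were not among the classes compared. Mature dendritic cells were the higher class in 5 of these 6 pairs, and their summed ratio turned to 0.968 with doubled marker limits.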

How the results depend on the processing

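The summed ratio stayed below 1 in macrophages, monocytes and cDC2 and above 1 in tumour-like cells under every alternative run, and turned in mature dendritic cells with doubled marker limits (0.968) and in cDC1 without Cd74 (1.1), scaled to the median gene (1.01) and without Gm42418 (1.01). The causes were not tested. Values outside the counting interval of the reported ratio were as follows. Without mitochondrial and ribosomal protein genes macrophages gave 0.906. Scaled to the median gene, macrophages gave 0.928, monocytes 0.851 and mature dendritic cells 1.23. As a mean over barcodes, macrophages gave 0.836, cDC1 0.928, cDC2 0.932 and mature dendritic cells 1.12. Thinned to 2000 UMIs, macrophages gave 0.833, cDC1 0.920, cDC2 0.940 and tumour-like cells 1.07. With doublet calls kept, macrophages gave 0.896. Doubled limits gave 0.767 in monocytes, 0.852 in cDC1 and 0.949 in cDC2. With T or NK mixed barcodes, macrophages gave 0.926, monocytes 0.871, cDC2 0.889 and mature dendritic cells 1.04, and this was not run for tumour-like cells. Without Cd74, macrophages gave 0.944, monocytes 0.858, cDC2 0.883 and tumour-like cells 1.06. The control mix of programs with each barcode weighted alike gave 0.793 in macrophages, beside 0.836 from the weighting alone. Of the alternatives chosen after seeing the data, CPM without Gm42418 gave 0.932 in macrophages, 0.853 in monocytes, 0.885 in cDC2 and 1.21 in mature dendritic cells. Without barcodes under 3000 UMIs macrophages gave 0.912, monocytes 0.755 and mature dendritic cells 1.1, and leaving out barcodes present in both libraries moved no ratio past its interval. At a minimum of 100 UMIs, class II genes at least 25% higher or 20% lower numbered 0 in macrophages, cDC2 and tumour-like cells and 1 in mature dendritic cells, and 2 in tumour-like cells with no minimum. No paired analysis was possible because each diet had 1 library. Few UMIs limit H2-Oa, H2-Ob, H2-DMb2 and Ciita, and cDC1 rest on the fewest barcodes of the main classes.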
